A study of Rattus norvegicus with 6 samples.

Results

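The gp130 cytokine signalling genes are described here in rat dorsal root ganglia, which house the cell bodies of sensory neurons, after an injury to a peripheral nerve. The 10 genes were given by name: the ligands Il6, Lif and Cntf, the receptor chains Il6st, Il6r, Lifr, Osmr and Cntfr, the transcription factor Stat3 and its feedback inhibitor Socs3. Of these 10, 9 were listed in at least 1 library, 8 were listed in every library, and those 8 passed edgeR's filter on low counts and were tested; in all, 14346 genes were listed and 11091 tested. The data are 6 RNA sequencing libraries, 3 from ganglia of sham-operated rats and 3 from rats with a partial sciatic nerve ligation (pSNL), all taken 7 days after surgery. In pSNL a ligature closes off some of the axons of the sciatic nerve and spares the others, and the model is used to study neuropathic pain. The labels give no strain, sex, age, ganglion level or pooling. Nor do they say which animals a library holds, so the p-values speak only for spread among these 6 libraries, part of which may be technical.

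Cytokines of this family signal through receptors that share gp130, the protein encoded by Il6st. IL-6 binds its own receptor chain (Il6r) and then gp130, LIF binds the LIF receptor chain (Lifr) with gp130, CNTF needs the CNTF receptor (Cntfr) together with Lifr and gp130, and oncostatin M uses its own chain (Osmr) or Lifr with gp130. The receptors activate Janus kinases, which phosphorylate STAT3; STAT3 enters the nucleus, and Socs3 is one of the genes it switches on and blocks the receptor in turn. After axotomy, LIF and IL-6 are known to act on sensory neurons and their glia, CNTF is stored in myelinating Schwann cells, and STAT3 in neurons is linked to axon regrowth.

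Library totals were 4310643 to 4416121 estimated counts, so that a gene at 1 CPM (counts per 1e+06 counts of a library) rests on only a few reads in a library. The 6 injury genes used to check the labels were higher in each pSNL library than in every sham library. In the test over all genes 51 passed an adjusted p of 0.05 (edgeR quasi-likelihood test, Benjamini-Hochberg), and this count was 21, 5 and 33 with sham replicate 1, 2 or 3 left out and 217, 9 and 96 with pSNL replicate 1, 2 or 3 left out. Sham replicate 3 stood apart by markers of central glia, which summed to 1881 CPM there and to 25.7 to 57.8 CPM in the other libraries. Skeletal muscle markers summed to 510 CPM in the third sham library and 978 CPM in the third pSNL library, and to 12.2 to 18.3 CPM elsewhere. pSNL replicate 2 stood apart by immediate early genes, which are described beside Socs3.

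At the adjusted p threshold edgeR called none of the 8 tested genes, against 0.46% of all tested genes, 0.442% higher and 0.018% lower. At an unadjusted p under 0.05 stood 4 of the 8 (Stat3, Osmr, Il6r and Socs3), all higher in pSNL, against 15.5% of all tested genes, 9.41% higher and 6.07% lower. DESeq2 called 2 of the 10, Socs3 and Il6, both higher in pSNL; it called 2.59% of the genes it adjusted, 1.96% higher. The log2 fold change was positive for 7 of the 8 and negative for Cntfr, and the median was 0.50, against 49.4% positive and a median of -0.0024 over all tested genes. The pSNL and sham libraries did not overlap for Stat3, Osmr and Socs3, which were higher, and for Cntfr, which was lower; separated groups were found for 21.5% of all tested genes, 11.1% higher and 10.4% lower. Il6, which was below edgeR's filter on low counts, also had groups that did not overlap. The same shares of all tested genes are the background for the counts of marker and pathway lists given below. The levels came from bulk tissue, in which more cells of a type and more RNA per cell cannot be told apart.

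**Figure D1:**
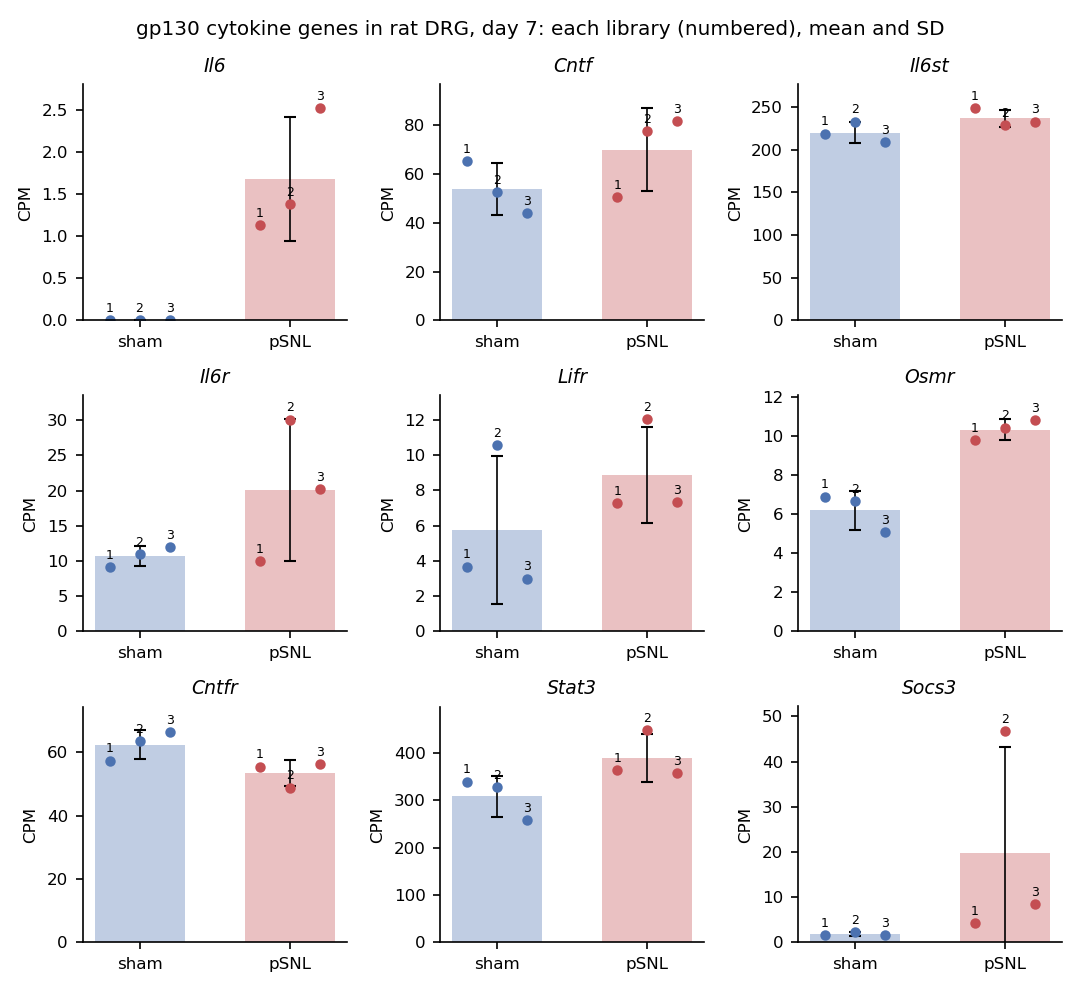
CPM of the 9 listed genes in each of the 6 libraries (points, numbered by replicate), with the mean (bar) and SD (line, cut off at 0 for Socs3) of the 3 libraries of a group; each panel has its own axis from 0. Il6 was at 0 in all sham libraries, and the Socs3 mean in pSNL was set by replicate 2 at 46.7 CPM.

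Among the ligands, Il6 (gene ID 24498), the cytokine that gives the family its name, was seen in pSNL libraries and not in sham libraries. It had 0 counts in each sham library and 5, 6 and 11 counts in pSNL replicates 1, 2 and 3, or 1.14, 1.39 and 2.52 CPM. Set against a floor of 3 counts over the sham libraries, the summed level was 7.32-fold higher in pSNL, a value that leaves out the counting error of the pSNL libraries. The lower limit of the exact 95% counting interval of the ratio was 5.47. The fold against the floor fell to 4.88 without any 1 sham library, since fewer sham counts were then searched. An exact two-sided permutation test of CPM gave p = 0.1, the smallest value that 3 libraries against 3 allow. Without the filter on low counts edgeR's test did not call Il6 (adjusted p = 0.0662), and DESeq2 called it (adjusted p = 0.0416). The interval covers counting error only, and reads without molecular identifiers are not independent molecules.

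Lif (gene ID 60584), the cytokine made by glia of injured nerves, was not listed in any library and is taken as 0; whether the gene was in the annotation used for counting was not stated in the sources used here. Cntf (gene ID 25707), the Schwann cell cytokine, was the one ligand at a high level. It stood at 65.3, 52.6 and 43.9 CPM in sham replicates 1, 2 and 3 and at 50.6, 77.7 and 81.6 CPM in the pSNL replicates. The groups overlapped, because pSNL replicate 1 lay below 2 of the sham libraries. Its log2 fold change was 0.38 ± 0.21 (SE; edgeR adjusted p = 0.43), and with any 1 library left out it lay between 0.25 and 0.57. It was 0.12 without both replicate 3 libraries, which carried the muscle markers, an alternative chosen after seeing the data.

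Of the 8 markers of myelinating Schwann cells, 6 had a positive and 2 a negative fold change, and edgeR called none (4 reached an unadjusted p of 0.05 and DESeq2 called 2). Their summed level was 17552 to 21236 CPM in sham and 19849 to 31034 CPM in pSNL, highest in sham replicate 3 and pSNL replicate 3. Per length, Cntf amounted to 1.79 ± 0.0867% of the level of Pmp22, a myelin membrane protein, in sham and 1.58 ± 0.242% in pSNL (SD, n = 3 each), and the ratios of the libraries overlapped. Against Prx, a protein of the Schwann cell cytoskeleton in myelinated fibres, Cntf was at 23.6 ± 1.24% in sham and 18.2 ± 1.82% in pSNL, and these did not overlap; of 4 such ratios to markers, 2 overlapped. The part of Schwann cell content in the Cntf values was not tested.

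Among the receptor chains, Il6st (gene ID 25205), the shared signal transducer, varied least. It was at 219, 232 and 209 CPM in sham and at 248, 229 and 233 CPM in pSNL. The highest sham library lay above the lowest pSNL library. Its log2 fold change was 0.10 ± 0.08 (edgeR adjusted p = 0.579), and it stayed between 0.065 and 0.14 with any 1 library left out.

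Osmr (gene ID 310132), the oncostatin M receptor chain, was separated between the groups. It was at 6.88, 6.66 and 5.06 CPM in sham and at 9.76, 10.4 and 10.8 CPM in pSNL, and every pSNL library exceeded every sham library. This was a log2 fold change of 0.73 ± 0.23 (1.66-fold; edgeR adjusted p = 0.176), between 0.60 and 0.82 with any 1 library left out. These levels rest on 22 to 47 counts a library. Osmr also forms the IL-31 receptor with Il31ra, a chain of itch-sensing neurons. Il31ra was at 2.06, 1.15 and 1.38 CPM in sham and at 6.58, 7.17 and 2.52 CPM in pSNL, with no overlap (log2 fold change 1.81 ± 0.47, edgeR adjusted p = 0.115). Of 6 tested markers of non-peptidergic and itch neurons 5 had a negative fold change, and the sum of the list was 508 to 573 CPM in sham and 454 to 583 CPM in pSNL.

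Il6r (gene ID 24499), the IL-6 binding chain, was high in only 2 pSNL libraries. It was at 9.17, 11.02 and 11.9 CPM in sham and at 9.99, 30.1 and 20.2 CPM in pSNL, so that pSNL replicate 1 lay within the sham range. For Il6r the log2 fold change was 0.90 ± 0.36 (edgeR adjusted p = 0.29). Without pSNL replicate 1 it was 1.23 and passed the threshold (edgeR adjusted p = 0.0328, where 1.92% of genes were called), and without pSNL replicate 2 it was 0.49 (adjusted p = 0.663). Over its 14 alternatives the adjusted p lay between 0.0328 and 0.663. Macrophages and other leukocytes carry Il6r. Of the 12 macrophage markers 11 had a positive fold change and 5 had groups that did not overlap, against 49.4% and 21.5% of all tested genes. None was called by edgeR. An unadjusted p of 0.05 was reached by 9, against 15.5% of all tested genes, and DESeq2 called 4, against 2.59% of the genes it adjusted. All 12 were detected, and their sum was 188 to 245 CPM in sham and 323, 537 and 552 CPM in pSNL replicates 1, 2 and 3. Markers of T cells, B cells and neutrophils summed to 4.82 to 12.7 CPM per library, and Cd79a was at 0 in all. The part of these cells in the Il6r values was not tested.

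Lifr (gene ID 81680), shared by the receptors for LIF and CNTF, varied as widely within groups as between them. It was at 3.67, 10.6 and 2.99 CPM in sham and at 7.26, 12.02 and 7.34 CPM in pSNL. Sham replicate 2 lay above 2 pSNL libraries and decided the size of the difference. The log2 fold change was 0.63 ± 0.47 (edgeR adjusted p = 0.567), 1.4 without sham replicate 2 (adjusted p = 0.258), and 0.39, 0.31 and 0.34 without sham replicate 1, sham replicate 3 or pSNL replicate 2.

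Cntfr (gene ID 313173), the CNTF binding chain, which neurons carry, was the 1 member with lower values in pSNL. It was at 57.3, 63.3 and 66.2 CPM in sham and at 55.4, 48.8 and 56.2 CPM in pSNL. No library of one group reached into the other, although sham replicate 1 and pSNL replicate 3 lay close together. The log2 fold change was -0.22 ± 0.11 (edgeR adjusted p = 0.358). Of 16 sensory neuron markers 11 had a negative fold change and edgeR called none (6 reached an unadjusted p of 0.05 and DESeq2 called 2), and their sum was 48107 to 60518 CPM in sham and 46431 to 50877 CPM in pSNL. The highest Cntfr value was in sham replicate 3, the library with central glia transcripts, and the log2 fold change was -0.18 without it.

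**Figure D2:**
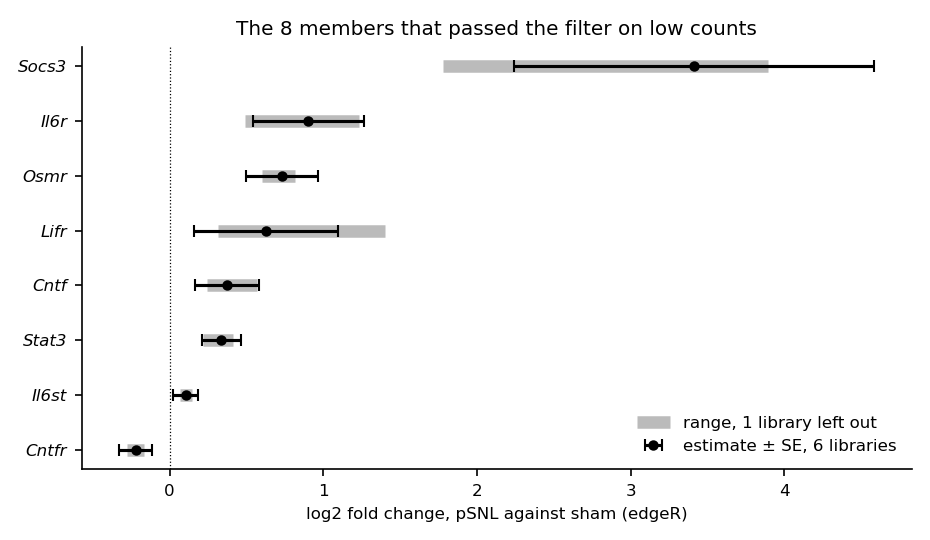
Log2 fold change of pSNL against sham for the 8 tested genes (points, with the SE as lines, from edgeR over 6 libraries) and its range when any 1 library is left out (grey). Socs3 ranged from 1.78 to 3.89 and Il6st from 0.065 to 0.14, and each gene kept its sign.

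Stat3 (gene ID 25125), the transcription factor that carries the signal to the nucleus, was at 339, 327 and 258 CPM in sham and at 363, 448 and 357 CPM in pSNL. All pSNL libraries lay above all sham libraries, by little between sham replicate 1 and pSNL replicate 3. The log2 fold change was 0.34 ± 0.13 (1.26-fold; edgeR adjusted p = 0.245). Leaving out sham replicate 3, the lowest library, or pSNL replicate 2, the highest, gave 0.22 each time (adjusted p = 0.389 and 0.61). It was 0.11 (edgeR adjusted p = 0.647) with both of these libraries left out, an alternative chosen after seeing the data. The test measures mRNA and not the phosphorylated protein.

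Socs3 (gene ID 89829), the feedback inhibitor that STAT3 induces, had the highest fold change of the 8 and the widest spread. It was at 1.60, 2.30 and 1.61 CPM in sham and at 4.31, 46.7 and 8.49 CPM in pSNL, which are 7, 10 and 7 counts against 19, 202 and 37. All 3 pSNL libraries exceeded all sham libraries, and pSNL replicate 2 lay far above the other two. Its fitted log2 fold change was 3.41 ± 1.17 (edgeR adjusted p = 0.277; DESeq2 3.43, adjusted p = 0.0401). Without pSNL replicate 2 it was 1.78 (edgeR adjusted p = 0.25), and over its 14 alternatives the adjusted p lay between 0.0401 and 0.52.

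pSNL replicate 2 was also the library in which immediate early genes, which cells switch on within minutes to hours of a stimulus, were highest. Fos was at 4.81, 8.26 and 7.12 CPM in sham and at 3.18, 426 and 14.4 CPM in pSNL. Junb, which STAT3 and other factors induce, was at 17.4, 25.02 and 13.1 CPM in sham and at 14.1, 236 and 42.2 CPM in pSNL. Both genes differ from Socs3 in pSNL replicate 1, where they lay within or below the sham range and Socs3 did not. Of 10 early genes picked after the level of Fos was seen, 10 were highest in pSNL replicate 2, among them Jun at 534 CPM against 139 to 290 CPM elsewhere. Jun and Zfp36 were, like Socs3, above the sham range in pSNL replicate 1 as well. Jun was at 185 CPM there against 139 to 163 CPM in sham, and Zfp36 at 25.4 CPM against 12.6 to 24.8 CPM. The groups of the other early genes overlapped. The part of the early genes in the Socs3 values was not tested.

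**Figure D3:**
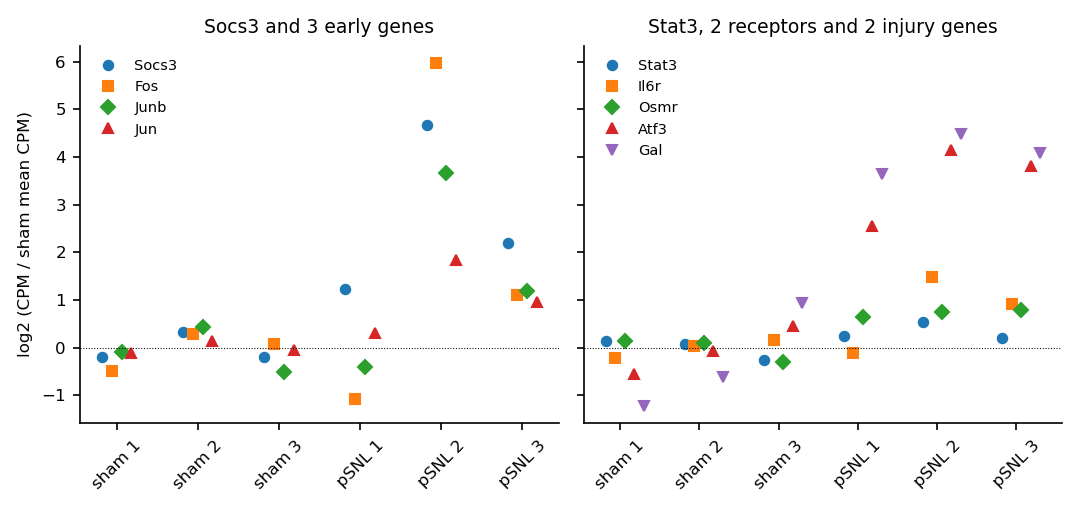
Level of Socs3 with 3 early genes (left) and of Stat3, 2 receptor chains and 2 injury genes (right) in each library, as log2 of the CPM over the sham mean CPM. Socs3, Fos, Junb and Jun all peaked in pSNL replicate 2, whereas Osmr lay in a narrow band over the 3 pSNL libraries and Atf3 and Gal were high in all 3.

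Levels of different genes can be set side by side only per length, for which the deposited FPKM values (fragments scaled to gene length and library size) were used. In sham ganglia the order was Stat3 at 68.0 ± 8.91 FPKM, Cntf at 49.4 ± 9.43, Cntfr at 46.9 ± 3.86 and Il6st at 28.9 ± 1.31 FPKM (SD, n = 3 each). A second tier held Il6r at 2.33 ± 0.328, Socs3 at 2.17 ± 0.454, Osmr at 2.12 ± 0.32 and Lifr at 1.66 ± 1.20 FPKM. The libraries of Cntfr and Il6st did not overlap, nor did those of Il6st and Il6r, so that the 2 tiers were separated. Stat3 and Cntf overlapped, as did Cntf and Cntfr and each pair of neighbours within the lower tier.

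In pSNL ganglia the order of the upper tier was the same, with Stat3 at 86.3 ± 11.2, Cntf at 64.2 ± 14.8, Cntfr at 40.4 ± 3.13 and Il6st at 31.2 ± 1.72 FPKM, and no neighbours among these overlapped. Socs3 came next at 23.4 ± 27.6 FPKM and spanned 5.18 to 55.2 FPKM, which overlapped with Il6st above it and Il6r below it. Il6r was at 4.37 ± 2.17, Osmr at 3.54 ± 0.132, Lifr at 2.58 ± 0.788 and Il6 at 1.63 ± 0.696 FPKM, and each overlapped with the next.

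Of the chains that CNTF needs, the mRNA of Cntfr was higher per length than that of Lifr in every library. Lifr rests on 13 to 52 counts a library. These are mRNA levels of bulk tissue and do not give the make-up of a receptor or the cells that carry it. The ratio of Cntfr to Lifr in FPKM was 40.8, 15.6 and 57.4 in sham and 19.8, 10.5 and 19.9 in pSNL, and these ranges overlapped. Il6st was below Cntfr and above Osmr, Il6r and Lifr in each group. It stood at 13.9 ± 1.88 times Osmr in sham and 8.84 ± 0.814 times in pSNL, with no overlap between groups. Against Il6r it stood at 14.4, 12.8 and 10.6 times in sham and at 15.04, 4.61 and 6.98 times in pSNL, where replicate 1 was above all sham libraries. Stat3 exceeded Socs3 by 39.6, 26.7 and 30.0 times in sham and by 15.8, 1.79 and 7.87 times in pSNL.

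**Figure D4:**
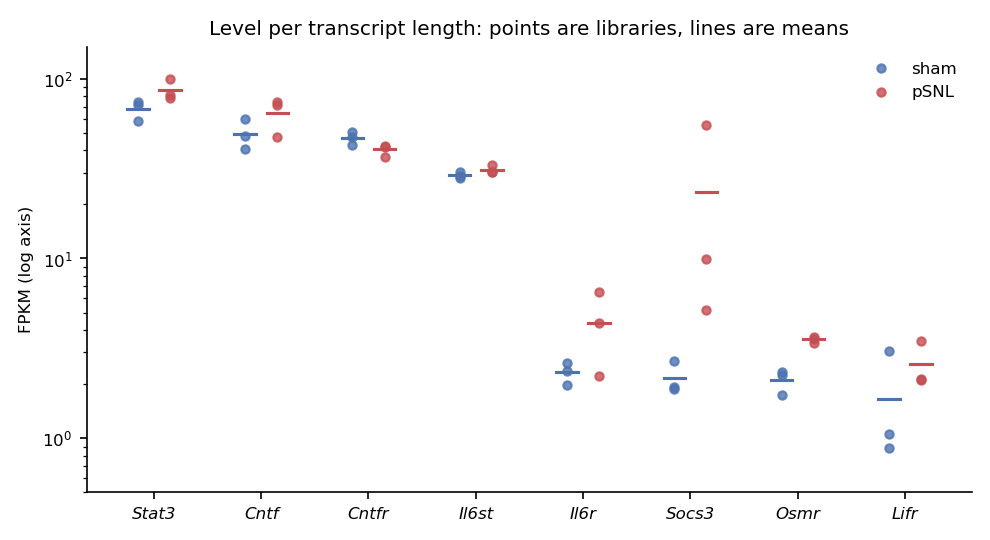
FPKM of the 8 genes listed in every library, on a log axis, in sham and pSNL libraries (points) with the group mean (line), ordered by the sham mean. Stat3, Cntf, Cntfr and Il6st lay between 27.9 and 99.0 FPKM in all libraries, and Il6r, Osmr and Lifr between 0.88 and 6.54 FPKM.

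The rest of the pathway was read from lists of 75 further genes, of which 60 were tested. Of these 60, edgeR called 4, all of them known targets described below. An unadjusted p under 0.05 was reached by 26, against 15.5% of all tested genes. Without overlap 22 were higher and 2 lower, against 11.1% and 10.4% of all tested genes. The list of known targets alone held 11 higher and 2 lower of the 26, and 10 of the 22. All lists were chosen with earlier results of these data known, so these counts are not independent evidence. Among other ligands, Ctf1 (cardiotrophin 1) was at 4.58, 1.38 and 4.83 CPM in the sham libraries and overlapped with 2.72, 3.24 and 5.05 CPM in the pSNL libraries, and neither edgeR nor DESeq2 called it (log2 fold change 0.028 ± 0.47, edgeR adjusted p = 0.982). The fold change of Ctf1 took the other sign when sham replicate 2 or pSNL replicate 3 was left out. Osm, the ligand of Osmr, had 3 counts in the sham and 7 in the pSNL libraries together (ratio 2.33, exact 95% counting interval 0.532 to 14.0). Clcf1, a CNTF-like cytokine, had 12 and 23 counts (ratio 1.91, 0.914 to 4.22), and Il27 was not listed in any library. The IL-11 receptor chain Il11ra1 was at 50.9 ± 6.55 CPM in sham libraries against 42.5 ± 6.05 CPM in pSNL libraries (edgeR adjusted p = 0.414).

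All 9 tested Janus kinases and other STATs had fold changes above 1 (median log2 0.30), but edgeR called none (5 reached an unadjusted p of 0.05 and DESeq2 called 0). Stat5a, a STAT used by growth factor and cytokine receptors, was at 17.8 ± 1.25 CPM in sham against 28.4 ± 4.71 CPM in pSNL without overlap (log2 fold change 0.67 ± 0.16, edgeR adjusted p = 0.0891). Its gene lies beside Stat3. Stat2, a STAT of the interferon pathway, was at 62.7 ± 4.85 and 81.4 ± 6.11 CPM, and Jak1, the main kinase bound to gp130, at 255 ± 18.7 and 311 ± 47.6 CPM (adjusted p = 0.124 and 0.271).

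Of 11 tested feedback inhibitors and phosphatases other than Socs3 edgeR called none (2 reached an unadjusted p of 0.05 and DESeq2 called 0), 8 had a positive fold change, and the median log2 was 0.11. Ptpn6, the phosphatase SHP-1 of blood cells, was at 5.36 ± 0.934 CPM in sham against 10.2 ± 0.634 CPM in pSNL without overlap (edgeR adjusted p = 0.116), beside the macrophage markers given above. Cish, a STAT5-induced inhibitor, was at 24.99, 28.5 and 28.3 CPM in sham and at 36.8, 39.1 and 32.1 CPM in pSNL, also without overlap (log2 fold change 0.40 ± 0.13, edgeR adjusted p = 0.19). Socs2 was at 6.27 ± 1.74 and 9.02 ± 1.75 CPM (edgeR adjusted p = 0.409). Socs1 had 9 and 13 counts over the groups, and Socs7 was not listed in any library.

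Of 6 adaptors that link gp130 to the MAP kinase branch edgeR called none (2 reached an unadjusted p of 0.05 and DESeq2 called 0). Gab1 was at 84.6 ± 4.42 and 99.1 ± 9.14 CPM and Sos1 at 49.7 ± 3.84 and 62.5 ± 6.93 CPM (edgeR adjusted p = 0.314 and 0.212). Gab2 was at 5.50, 5.74 and 4.37 CPM in sham and at 13.2, 19.0 and 3.44 CPM in pSNL, so that its groups overlapped through pSNL replicate 3. Without that library it passed the threshold (log2 fold change 1.62 against 1.18 with all, edgeR adjusted p = 0.0409). Adam10 and Adam17, proteases that shed IL-6 receptor from the cell surface, were at 90.4 ± 10.9 and 120 ± 14.2 CPM and at 59.3 ± 6.30 and 68.3 ± 3.79 CPM in sham and pSNL (edgeR adjusted p = 0.147 and 0.399).

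Genes that gp130 cytokines or STAT3 are known to induce in nerve, liver or other tissue held the calls of the pathway. Of 24 tested, 4 rose (Reg3b, Sprr1a, Hamp and Timp1), against 0.442% of all tested genes, and none fell. In all, 18 had a positive fold change, and the median log2 was 0.44. DESeq2 called 8, adding A2m, Gal, Serpina3n and Cebpd. The list was drawn up with earlier results of these data known, so its direction is not independent evidence, and 2 of its genes, Gal and Sprr1a, are also among the genes that check the labels. The edgeR count was 2 when sham replicate 2 or pSNL replicate 2 was left out, and 3 to 6 when any other library was.

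Reg3b (gene ID 24618), a secreted lectin of injured tissue, was at 2.29, 4.59 and 3.45 CPM in sham and at 24.1, 33.5 and 27.1 CPM in pSNL. Its log2 fold change was 3.02 ± 0.25 (edgeR adjusted p = 0.00229), and it kept the call whichever library was left out. Hamp, which encodes hepcidin, a liver hormone of iron control that IL-6 induces through STAT3, had 3 counts in the sham and 96 in the pSNL libraries together, that is, a ratio of 32.0 (exact 95% counting interval 10.6 to 158). Its edgeR adjusted p was 0.0172, and the call was lost without sham replicate 2 (0.13) and without pSNL replicate 2 (0.0774). Sprr1a, a cornified envelope protein also found in regrowing axons, had 1 and 152 counts (ratio 152, 26.8 to 6034; edgeR adjusted p = 0.00493). Timp1, an inhibitor of matrix metalloproteases, rose from 40.5 ± 4.47 CPM in sham libraries to 78.0 ± 12.5 CPM after pSNL (log2 fold change 0.94 ± 0.14, edgeR adjusted p = 0.0226). The Timp1 call was kept without pSNL replicates 1 and 3 and lost without each of the other 4 libraries (adjusted p = 0.0521 to 0.13). Fibroblasts express Timp1, and all 7 fibroblast markers were higher without overlap, against 11.1% of all tested genes. None of the 7 was called by edgeR (6 reached an unadjusted p of 0.05 and DESeq2 called 3). Their sums were 1743 to 3810 CPM in sham and 4231 to 7040 CPM in pSNL. The part of fibroblasts in the Timp1 values was not tested.

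Serpina3n, an acute phase protease inhibitor named here after its values were seen, was at 0.688, 0.918 and 2.30 CPM in sham and at 11.1, 78.8 and 44.3 CPM in pSNL (log2 fold change 5.07 ± 1.08, edgeR adjusted p = 0.147). As with Socs3, pSNL replicate 2 was the highest library and replicate 1 the lowest of the 3. The following genes of the list were also named after their values were seen. A2m, alpha-2-macroglobulin, was at 45.2 ± 6.01 and 91.5 ± 23.2 CPM (edgeR adjusted p = 0.0597). Not all acute phase genes were found at higher levels: Lcn2 was at 5.28 ± 2.49 and 6.34 ± 0.88 CPM, Hp at 2.14 ± 0.664 and 1.45 ± 0.793 CPM, and Fgb and Fgg had at most 3 counts over either group. Gfap was at 18.6, 18.1 and 542 CPM in sham and at 19.5, 50.9 and 38.8 CPM in pSNL, the high value being that of the library with central glia transcripts.

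**Figure D5:**
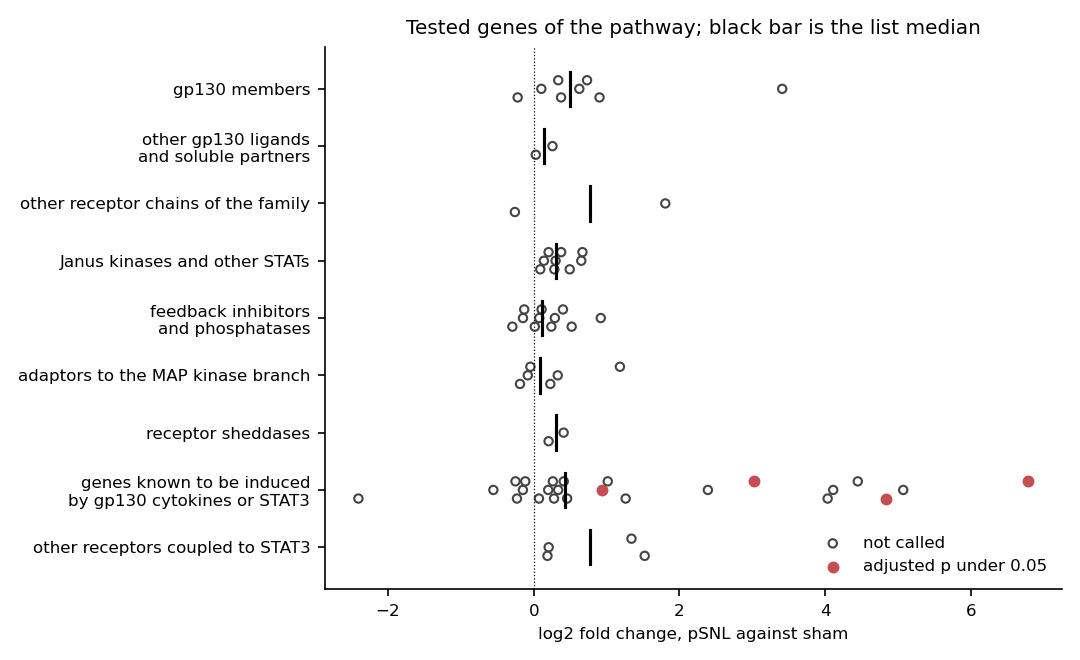
Log2 fold change of pSNL against sham for each tested gene of the 10 given genes and of the other lists of the pathway (circles, filled where the edgeR adjusted p was under 0.05), with the median of each list (black bar). The 4 filled points are Timp1, Reg3b, Hamp and Sprr1a.

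The palindrome TTCNNNGAA, the core to which STAT dimers bind and which reads the same on both strands, was searched in RefSeq promoter windows of the assembly GRCr8, each reaching from 250 bases before a gene's start to 50 bases after it. It was found in 8.87% of 33469 windows and in 6.65% of the 9469 windows of tested genes. Windows were found for 8 of the 10 given genes, all but Lif and Cntfr, and 0 of the 8 held it. The Socs3 window belongs to the inner of its transcript starts and does not reach the outer one, so this says only that the letters are not in that window. Among the 20 induced genes with a window, 5 held the palindrome, namely Hamp, Reg3b, Serpina3n, Bcl2l1 and Fgb, and among 11 inhibitors and phosphatases Cish and Socs1 did. Among 5 receptors outside the gp130 family that couple to STAT3, Il10rb held it. No palindrome was found for Sprr1a (log2 fold change 6.79) or Timp1, the other called genes of the induced list. Whether each of them had a window is not given here. The sequences before the start of Hamp, Reg3b and Serpina3n are shown because, of the genes with a match, these had log2 fold changes of 3 or more. That of Cish is shown because it holds 4 copies. Capitals mark the palindrome. The choice rests on the fold changes, so it says nothing of how the palindrome goes with them.
Hamp, GRCr8 chr1:95300356-95300412, minus strand: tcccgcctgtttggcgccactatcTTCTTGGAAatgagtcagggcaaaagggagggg
Reg3b, GRCr8 chr4:112419623-112419679, plus strand: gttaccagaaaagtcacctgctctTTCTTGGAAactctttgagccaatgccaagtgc
Serpina3n, GRCr8 chr6:129088245-129088301, plus strand: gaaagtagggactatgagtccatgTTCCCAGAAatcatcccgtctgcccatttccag
Cish, GRCr8 chr8:116850719-116850882, plus strand: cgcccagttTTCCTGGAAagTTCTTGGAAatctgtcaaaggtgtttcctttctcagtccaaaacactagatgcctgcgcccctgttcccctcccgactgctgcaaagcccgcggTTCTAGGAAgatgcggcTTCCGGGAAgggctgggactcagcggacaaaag
The palindrome began 117 bases before the start in Hamp, 129 in Reg3b and 123 in Serpina3n, and Hamp and Reg3b held the same 9 letters. In Cish it began 241, 230, 136 and 119 bases before the start, and the copy at 230 bases held the same 9 letters as Hamp and Reg3b. A match describes the letters and does not show that STAT3 was bound there. Bcl2l1 held 2 copies in its window and was at 111 ± 19.3 CPM in sham against 103 ± 4.10 CPM in pSNL (edgeR adjusted p = 0.696).

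The genes whose levels over the 6 libraries were most like each member were taken by Pearson's r of log2 CPM among tested genes with a mean of at least 5 CPM; the values are a description, since all points share the same 6 libraries and each gene was picked as a closest match. Stat3 was most like Tnfaip1, Tgfbr1 and Msn (r = 0.991, 0.99 and 0.989), and Socs3 most like Virma, Jun and Tnik (0.998, 0.993 and 0.99). Osmr was most like Arhgef28, Ddn and Clic1 (0.992, 0.992 and 0.991), and Il6r most like Dennd2b, Nrros and Msl1 (0.998, 0.992 and 0.991), of which Nrros is a gene of macrophages and microglia. Cntf was most like Rpusd2 and Igfbp7 (0.992 and 0.981), and Cntfr most like Tomm20, Prxl2a and Rad50 (0.991, 0.987 and 0.981). Lifr was most like Calu, Ptpn1 and Zfyve28 (0.985, 0.978 and 0.977), of which Ptpn1 is a phosphatase that acts on Janus kinases. Il6st was most like Irgm, Ccdc137 and Zfp26 (0.982, 0.978 and 0.977).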

How the data were processed

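RNA was measured in 6 libraries of dorsal root ganglia, 3 sham and 3 pSNL; groups and replicate numbers came from the sample titles. Per the labels' protocols, RNA was extracted with Trizol and libraries were made from total RNA with a BGISEQ-500 kit. CASAVA 1.4 and Bowtie2 are named in the submitters' processing notes; the quantifier, genome build, annotation and use of strand were not given in the sources used here. Per the file headers, the deposited tables hold expected counts (estimated by the authors, 89.1% to 89.5% of them whole numbers), FPKM and a gene length. The FPKM values deposited by the authors were used only to set levels of different genes side by side. Only genes above 0 are listed, and an absent gene was taken as 0. Gene IDs were matched to symbols in a RefSeq table of GRCr8 (14227 by ID, 16 by transcript, 103 unmatched). In that table Il6r overlaps She and Il6st overlaps a noncoding RNA, so their reads may be shared.

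Expected counts were rounded to whole numbers and tested with edgeR 4.0.16 in R 4.3.3: genes were filtered by filterByExpr, libraries scaled by TMM, the quasi-likelihood fit made robust, and p-values adjusted by Benjamini-Hochberg over 11091 genes, with 0.05 as the threshold. The fit was tested on simulated data. CPM uses TMM-scaled library sizes, log2 CPM a prior count of 2, means are ± SD over 3 libraries, and the SE of a log2 fold change comes from the F statistic. DESeq2 1.42.0, other factors, no filter, a fit without robust estimation, a replicate block and leaving out each library were the alternatives. Replicates of a group differed by more than sampling noise. The members and gene lists were chosen with earlier results of these data known. All 10 members are named, and of each other list the genes past the threshold and the 3 with the smallest p, with further genes that a count or a statement needed. Some genes that these rules name are not reported here.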

Additional observations from a re-analysis of the deposited data

How the results depend on the processing

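The count of 51 called genes was 48 and 59 with other scaling factors and 71 without robust estimation. It was 89 with no filter on low counts, 320 with DESeq2, 111 with the replicate block, 5 to 217 with 1 library left out, and, in alternatives chosen after seeing the data, 102 without both replicate 3 libraries and 25 without sham replicate 3 and pSNL replicate 2. Of the 10 members 2 were called by DESeq2 (Il6 and Socs3), 0 to 1 with 1 library left out (Il6r, without pSNL replicate 1), and 0 with the replicate block and in every other alternative. The fold of Il6 against the floor was 4.88 to 8.53 with 1 library left out, 3.66 without both replicate 3 libraries and 5.31 without sham replicate 3 and pSNL replicate 2. Each of the 8 tested members kept its sign in 14 alternatives. The log2 fold change of Ctf1 was -0.36 to 0.29 with 1 library left out: -0.36 without sham replicate 2, -0.27 without pSNL replicate 3 and -0.0025 without both replicate 3 libraries; the cause was not tested. The deviations of same-numbered libraries of the 2 groups had r = 0.03, 0.01 and 0.12 for numbers 1, 2 and 3; the number 3 libraries, which share the muscle markers, had the highest. With r under 0.1 for numbers 1 and 2, the shared numbers were not read as a pairing, and not every library correlated best with its own number. At this depth some detected genes among the members and the pathway lists were below edgeR's filter on low counts. They were Il6, Il11, Osm, Clcf1, Ebi3, Il27ra, Stat4, Socs1, Socs4, Fgb, Fgg, Lbp, Mmp9 and Il10ra.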

Other observations

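Receptors outside the gp130 family that also couple to STAT3 were measured as well. Of 4 tested edgeR called none (2 reached an unadjusted p of 0.05 and DESeq2 called 0), and the fold changes of all 4 were above 1 (median log2 0.77). Lepr, the leptin receptor, was at 4.13, 1.84 and 2.76 CPM in sham and at 7.72, 9.94 and 4.59 CPM in pSNL, without overlap (log2 fold change 1.34 ± 0.40, edgeR adjusted p = 0.148). Egfr, the epidermal growth factor receptor, was at 0.917, 1.61 and 0.689 CPM in sham and at 2.72, 3.70 and 2.98 CPM in pSNL, also without overlap (1.52 ± 0.45, edgeR adjusted p = 0.145). Il10rb was at 18.8 ± 1.82 and 21.7 ± 4.24 CPM, and its groups overlapped.

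Early genes of pSNL replicate 2 reached levels seen in no other library. Fosb was at 212 CPM there and at 0 to 1.83 CPM elsewhere, Egr1 at 165 CPM against 8.48 to 15.4 CPM, and Zfp36 at 275 CPM against 12.6 to 64.2 CPM.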
